A study of Mus musculus with 13 samples.

Results

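The comparison described here asked which transcripts of gamma delta intraepithelial lymphocytes differed after an antibody had bound their T cell receptor (TCR), in mice that received no interferon. It used 6 of the 13 bulk RNA sequencing libraries of the series: 3 from mice given UC7-13D5 and then phosphate buffered saline (the UC7-PBS group) and 3 from mice given Armenian hamster IgG and then saline (the IgG-PBS group). Genes on the autosomes were kept, 20370 of the 21084 in the table, because the animals behind the 2 groups differed in their X- and Y-linked transcripts.

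All mice were labelled wild type, and the cells were sorted from the small intestine. UC7-13D5, a hamster antibody to the gamma delta TCR, or the control IgG was injected intraperitoneally at 200 µg. The labels' protocol gives injections at 48 and 24 hours before the cells were isolated, whereas the series design gives 48 or 24 hours. Saline followed intravenously 5 hours before isolation. The other 7 libraries came from mice that received 1 µg of interferon alpha (IFNa) in place of saline, 4 after IgG and 3 after UC7-13D5. Libraries are named biological replicates in the labels. Whether a library held cells of 1 mouse or several, and the mice's age and sex, were not given in the sources used here.

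Gamma delta intraepithelial lymphocytes are long-lived T cells that sit between the epithelial cells of the gut lining. They carry cytotoxic granules, patrol the epithelium, and can be activated through their TCR, through natural killer receptors or by cytokines. A signal through the TCR normally runs through the CD3 chains and kinases to transcription factors such as NFAT, NF-kB and AP-1, and soon after raises immediate early genes such as the Fos, Jun, Egr and Nr4a families. Antibodies to the receptor can trigger it, remove it from the surface or hide it. The FOXO1 transcription factor is held out of the nucleus by AKT downstream of receptor and cytokine signals. In T cells it drives genes of quiescence and of circulation through lymphoid tissue. Heat shock proteins are chaperones that fold or rescue other proteins. Their genes respond to heat and protein damage through the heat shock factor HSF1, and they and the immediate early genes are also known to rise while tissue is digested to free cells.

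The libraries held 23075475 to 26183710 estimated counts. Levels are given as CPM, counts divided by library size and scaled by the TMM method, and differences as log2 of UC7-PBS over IgG-PBS with their standard error (SE). The markers of the labelled cell type were present: all 13 markers of gamma delta intraepithelial lymphocytes were at or above 1 CPM in each of the 6 libraries. That level does not tell cell types apart, since markers of other cells also reached it. These were 7 of 10 for alpha beta T cells, 9 of 15 for B and plasma cells, 18 of 30 for absorptive enterocytes and 15 of 21 for secretory epithelium. The gamma delta TCR constant gene Trdc measured 183, 162 and 213 CPM with IgG-PBS and 215, 209 and 203 CPM with UC7-PBS. The alpha beta TCR gene Trbc1 measured 708, 788 and 579 CPM and 547, 566 and 527 CPM, scaled over all 13 libraries. The IgG-PBS libraries held 265 to 345 CPM of Xist and at most 0.310 CPM of Y-linked transcripts. The UC7-PBS libraries held 300 to 328 CPM of Y-linked transcripts and at most 1.08 CPM of Xist. Every comparison below is therefore also one between libraries with female and with male transcripts, and antibody and sex cannot be told apart in these 6 libraries, for autosomal genes too. Markers of gut epithelium moved with the groups as well. Summed over 21 markers of secretory epithelial cells, the 3 IgG-PBS libraries held 121, 824 and 715 CPM and the 3 UC7-PBS libraries 2707, 1066 and 1334 CPM, scaled over all 13 libraries. Summed over 30 markers of absorptive enterocytes, they held 775, 990 and 1040 CPM and 1272, 1291 and 1308 CPM. The largest members of this sum were Cdh1 and Dgat1, and Dgat1 is also in the lipid handling list below. Cdh1 held 281 to 419 CPM with IgG-PBS and 289 to 464 CPM with UC7-PBS, and Dgat1 216 to 337 and 356 to 422 CPM. Both sums were higher in each UC7-PBS library than in any IgG-PBS library, and their part in the results below was not tested. In bulk RNA, fewer cells of a type and less RNA per cell cannot be told apart.

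Few autosomal genes passed the test. Of 14456 autosomal genes with enough counts, 13 had an adjusted p under 0.05 in edgeR's quasi-likelihood test, which is 0.0899% of those tested. Of these, 2 were higher after UC7-13D5 (0.0138% of genes tested) and 11 were lower (0.0761%). The lower entries described here are the chaperone genes Hspa8, Hspe1, Dnajb1 and Dnaja4, the near-identical copies Gm8355 and Gm15459, the AP-1 gene Jun, the histone gene H2bc4, Ctla2a and the unclassified transcript Gm43461. The higher ones were Foxo1 and the long noncoding RNA Gm6277. At an unadjusted p under 0.05, 1031 autosomal genes differed (7.13%), 648 higher (4.48%) and 383 lower (2.65%). The 2 groups did not overlap in 1815 genes (12.6%), 921 higher (6.37%) and 894 lower (6.18%). The median log2 difference over all autosomal genes was -0.02, and the middle 50% of genes lay between -0.16 and 0.15. The count rested on single libraries. It was 0 without UC7-PBS replicate 2, 5 without IgG-PBS replicate 3, 7 without IgG-PBS replicate 1, 20 without UC7-PBS replicate 1, 32 without IgG-PBS replicate 2 and 49 without UC7-PBS replicate 3. With UC7-PBS replicate 2 left out, 1028 genes still had an unadjusted p under 0.05. Each of the 13 calls was also lost in a fit of all 13 libraries, which called 0 (766 unadjusted), and with the share of male transcripts as a covariate, which called 0 (1351 unadjusted). Over all settings the log2 difference of Hspa8 lay between -1.13 and -0.84, that of Dnajb1 between -2.06 and -1.52, that of Dnaja4 between -1.17 and -0.85 and that of Hspe1 between -1.49 and -0.88. Those of Foxo1 (0.76 to 1.58) and Jun (-1.49 to -0.44) varied more. DESeq2 called 172 genes on the 6 libraries, 123 higher and 49 lower. Of the genes chosen for naming, 36 passed with DESeq2 but not with edgeR. Among them were Fos, Fosb, Gfi1, Satb1, Myc, Egr2, Csf2, Spp1, Ccl5, Klrc2, Rac1 and Snx20, and the epithelial markers Zg16, Tff3, Chga, Pla2g2a, Reg3g and Lgals4. The counts per list below are those of edgeR.

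**Figure D1:**
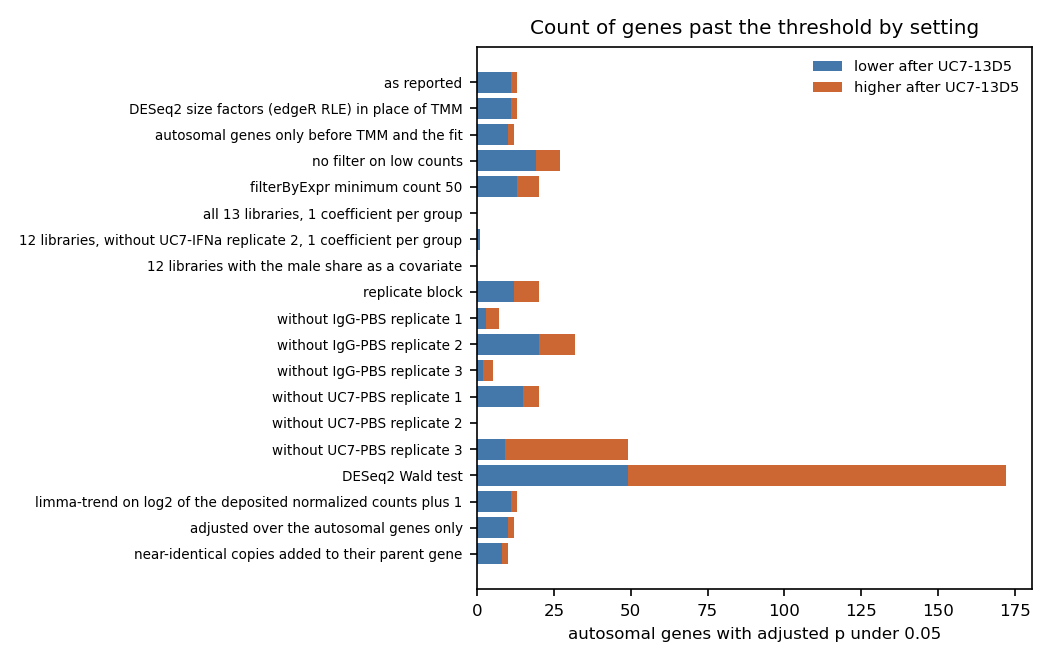
Number of autosomal genes with an adjusted p under 0.05 (horizontal axis), split into lower (blue) and higher (orange) after UC7-13D5, for the reported fit and each alternative setting. The count is 13 as reported and runs from 0, without UC7-PBS replicate 2 and in 2 fits over more libraries, to 172 with DESeq2's test.

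The chaperones are described first, because they make up most of the genes that passed. The promoter of Hspe1, which is also where Hspd1 starts on the other strand, holds the sequence that HSF1 is known to bind. The site is shown with 3 heat shock units, the length searched for, in capitals. A further GAA with the same spacing follows them in lower case. The promoter of Jun is shown for comparison, since Jun fell with the chaperones and has a known AP-1-like element, in capitals, through which Jun protein acts on its own gene. Both are from RefSeq on GRCm38.p6, 5′ to 3′ on the gene's strand, Hspe1 at chr1:55088050-55088079 (plus strand) and Jun at chr4:95052223-95052472 (minus strand).
Hspe1: cacggtccgTTCTAGAACCTTCcggaaggc
Jun: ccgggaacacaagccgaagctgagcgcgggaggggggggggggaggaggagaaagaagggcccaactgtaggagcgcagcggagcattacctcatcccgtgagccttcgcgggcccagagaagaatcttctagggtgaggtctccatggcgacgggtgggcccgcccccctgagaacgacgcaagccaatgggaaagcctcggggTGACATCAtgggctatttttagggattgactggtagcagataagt
The heat shock element was searched, on both strands, as GAA, any 2 bases, TTC, any 2 bases and GAA in the 250 bases before each start. It occurred in 153 of 32851 windows (0.466%), and among the 18 genes of the heat shock and dissociation list with a window it occurred at Hspd1 and Hspe1. The Jun element, TGACATCA on either strand, occurred in 2.93% of windows, and in that list at Jun. These matches describe the letters in the windows, and binding was not measured.

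Hspa8 encodes HSC70, the constitutive cytosolic HSP70. It measured 3095, 2424 and 2643 CPM with IgG-PBS and 1473, 1128 and 1359 CPM with UC7-PBS. Every UC7-PBS library was below every IgG-PBS library, and the log2 difference was -1.04 (SE 0.14, adjusted p = 0.0156 by edgeR). The gene lies on chromosome 9 at 40712280 to 40721383 in the files' build, mm39. The processed pseudogenes Gm15459 and Gm8355 match a transcript of Hspa8 over their whole length with 99.7% and 98.7% identical bases, so how reads were divided among the 3 entries is uncertain. Gm15459 differed by -1.05 and Gm8355 by -1.07, close to Hspa8 itself.

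Dnajb1, the HSP40 co-chaperone that delivers clients to HSP70, had the largest difference among the protein-coding genes that passed. It measured 1189, 880 and 1188 CPM with IgG-PBS and 477, 237 and 284 CPM with UC7-PBS. The groups were well apart, with a log2 difference of -1.71 (SE 0.25, edgeR adjusted p = 0.0341). Dnaja4, another HSP40 family member, measured 108, 90.6 and 120 CPM against 61.1, 49.9 and 54.6 CPM. Its log2 difference was -0.94 (SE 0.14, edgeR adjusted p = 0.0261), again without overlap. Dnaja4 overlaps Wdr61 on the opposite strand by 1581 bases, and use of strand in the counting was not given. Wdr61 itself differed by -0.04 (SE 0.13).

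Hspe1 encodes HSP10, the lid of the mitochondrial HSP60 chamber. It measured 94.3, 83.5 and 75.5 CPM with IgG-PBS and 45.2, 41.3 and 43.3 CPM with UC7-PBS. The difference was -0.97 (SE 0.13, edgeR adjusted p = 0.0155), and the UC7-PBS libraries were tightly grouped below the others. The partner gene Hspd1, which encodes HSP60, measured 202, 151 and 206 CPM against 140, 93.4 and 103 CPM and did not pass (log2 difference -0.73, SE 0.17, edgeR adjusted p = 0.191). With near-identical copies added to their parent genes, 10 entries passed in place of 13.

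The other chaperones had lower values too, without passing. They were chosen for naming after their values were seen. Hsph1, the HSP110 exchange factor of HSP70, measured 339, 215 and 331 CPM with IgG-PBS and 149, 81.5 and 120 CPM with UC7-PBS (log2 difference -1.33, SE 0.23, edgeR adjusted p = 0.0745). The HSP90 genes Hsp90ab1 and Hsp90aa1 differed by -0.78 (SE 0.15) and -0.95 (SE 0.18), with edgeR adjusted p-values of 0.0769 and 0.0782. In each of these genes the groups did not overlap. The stress-inducible HSP70 genes had the largest values and also the largest scatter. Hspa1a measured 1588, 896 and 2065 CPM against 642, 181 and 274 CPM (-2.05, SE 0.59, edgeR adjusted p = 0.475), and Hspa1b differed by -2.03 (SE 0.55, edgeR adjusted p = 0.438). Hspa5, the chaperone of the endoplasmic reticulum, differed by -0.22 (SE 0.13).

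**Figure D2:**
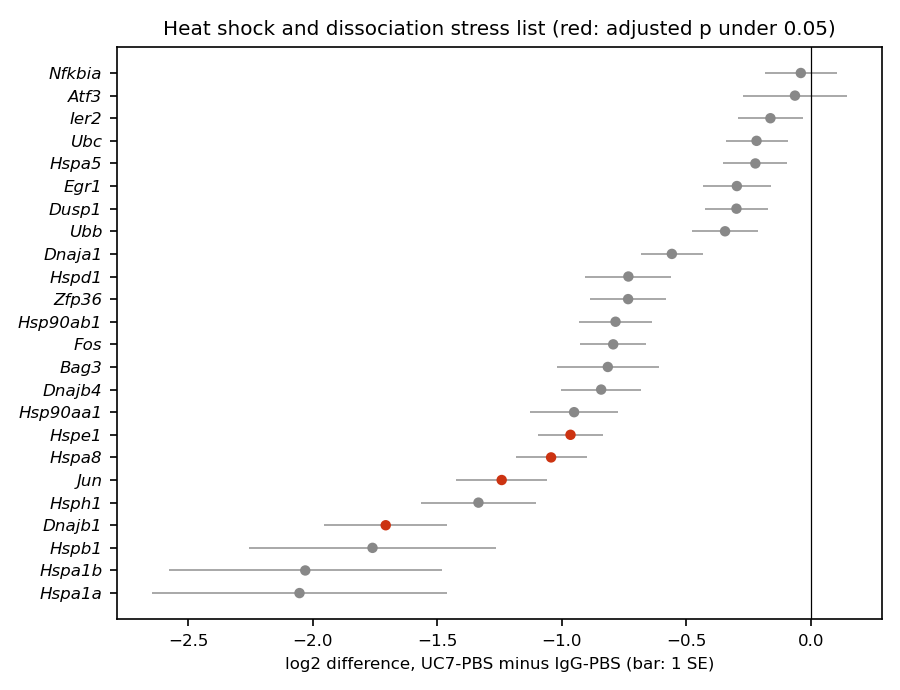
Log2 difference (UC7-PBS minus IgG-PBS, horizontal axis) of the 24 tested genes of the heat shock and dissociation stress list, with bars of 1 SE over 3 libraries per group. All 24 points lie below 0, and the red points, Dnajb1, Jun, Hspa8 and Hspe1, are those with an adjusted p under 0.05.

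In the list of heat shock and dissociation stress genes, 0 of 24 tested members rose and 4 fell (Dnajb1, Jun, Hspa8 and Hspe1). Over all autosomal genes tested, 0.0138% rose and 0.0761% fell. All 24 had a negative difference, and the median was -0.79 against -0.02 over all autosomal genes. Of the 24, 19 were lower without overlap between the groups, against 6.18% of all autosomal genes tested. The members are not independent, and the list was written with earlier results of these data known. Summed over the list, the IgG-PBS libraries held 35270, 31943 and 32994 CPM and the UC7-PBS libraries 24134, 20633 and 21190 CPM. The same sum was 23619 to 29518 CPM in the 4 libraries given IgG and IFNa, and 21174 to 29491 CPM in the 3 given UC7-13D5 and IFNa. Thus the 3 IgG-PBS libraries were above all 10 others of the series. The 20 tested genes of the integrated stress and unfolded protein response had a median difference of -0.05, and 0 of 20 passed. Their values went both ways, from -0.37 to 2.00. Of the 20, 4 were higher without overlap (6.37% over all autosomal genes tested) and 4 lower (6.18%).

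The genes that relay an activating signal came next. Jun, an AP-1 subunit and immediate early gene, measured 1764, 1411 and 1611 CPM with IgG-PBS and 892, 550 and 582 CPM with UC7-PBS. It fell by 1.24 on the log2 scale (SE 0.18, edgeR adjusted p = 0.0261), with a clear gap between the groups. Jun overlaps the noncoding Junos on the other strand by 689 bases. Its partner Fos measured 1783, 1399 and 1454 CPM against 926, 933 and 814 CPM. The groups of Fos did not overlap, but its difference of -0.79 (SE 0.13) missed the threshold with an edgeR adjusted p of 0.0522. Fosb differed by -0.76 (SE 0.16, edgeR adjusted p = 0.125) and Junb by -0.33 (SE 0.12, edgeR adjusted p = 0.462). Of 11 AP-1 subunits, 1 fell (0.0761% over all autosomal genes tested), 0 rose, 8 had negative values and the median was -0.06. Groups were lower without overlap in 4 (6.18% over all autosomal genes tested) and higher in 1 (6.37%). The summed level of this family was 8165, 7373 and 7461 CPM with IgG-PBS and 6124, 5217 and 5112 CPM with UC7-PBS, and 4459 to 6810 CPM in the 7 libraries with IFNa.

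Transcription factors used as reporters of TCR signalling did not pass, 0 of 15. Myc, a growth regulator, measured 157, 135 and 166 CPM with IgG-PBS and 113, 71.0 and 95.6 CPM with UC7-PBS (-0.71, SE 0.17, edgeR adjusted p = 0.187). Nr4a1, an orphan nuclear receptor induced by TCR signals, measured 708, 633 and 654 CPM against 471, 542 and 468 CPM (-0.43, SE 0.12, edgeR adjusted p = 0.312). Egr2 differed by -0.67 (SE 0.16) and Egr1 by -0.30 (SE 0.14), whereas Nr4a3 differed by 0.39 (SE 0.12). The list had 7 positive and 8 negative values and a median of -0.23. At an unadjusted p under 0.05 by edgeR, 5 were lower (2.65% over all autosomal genes tested) and 1 higher (4.48%). Without overlap, 4 were lower (6.18%) and 2 higher (6.37%). Among phosphatases and other brakes on MAP kinases, Dusp2 measured 16.4, 31.8 and 16.6 CPM against 50.9, 70.1 and 37.9 CPM (1.29, SE 0.30, edgeR adjusted p = 0.217), and Dusp5 differed by 0.61 (SE 0.16). Zfp36, which destabilises cytokine messages, differed by -0.73 (SE 0.15, edgeR adjusted p = 0.129). Of 23 genes of that list 0 passed, with a median of -0.09.

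The receptor itself, the target of the antibody, showed no change that passed. Of 10 TCR gamma delta constant and CD3 genes 0 passed, 0 had groups that did not overlap (12.6% over all autosomal genes tested), and the median was 0.10. Trdc differed by 0.17 (SE 0.13), Trgc1 by 0.13 (SE 0.15), Trgc2 by 0.07 (SE 0.12), Cd3e by 0.10 (SE 0.15) and Cd247, the CD3 zeta chain, by -0.05 (SE 0.14). These are transcript levels, and surface receptor was not measured. Of 17 variable segments tested 0 passed, and of 37 genes of proximal TCR signalling 0 passed with a median of -0.02. The kinase gene Fyn measured 223, 455 and 348 CPM against 706, 560 and 502 CPM (0.79, SE 0.23, edgeR adjusted p = 0.357), and Ubash3a, an inhibitor of TCR signalling, differed by -0.54 (SE 0.19). Of 20 calcium and NFAT genes, 15 NF-kB genes, 15 inhibitory receptors and 22 costimulatory and activation receptors, 0 passed in each list. Cd69, an early activation and retention marker, measured 862, 837 and 761 CPM against 603, 666 and 551 CPM, a difference of -0.44 (SE 0.12, edgeR adjusted p = 0.315).

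**Figure D3:**
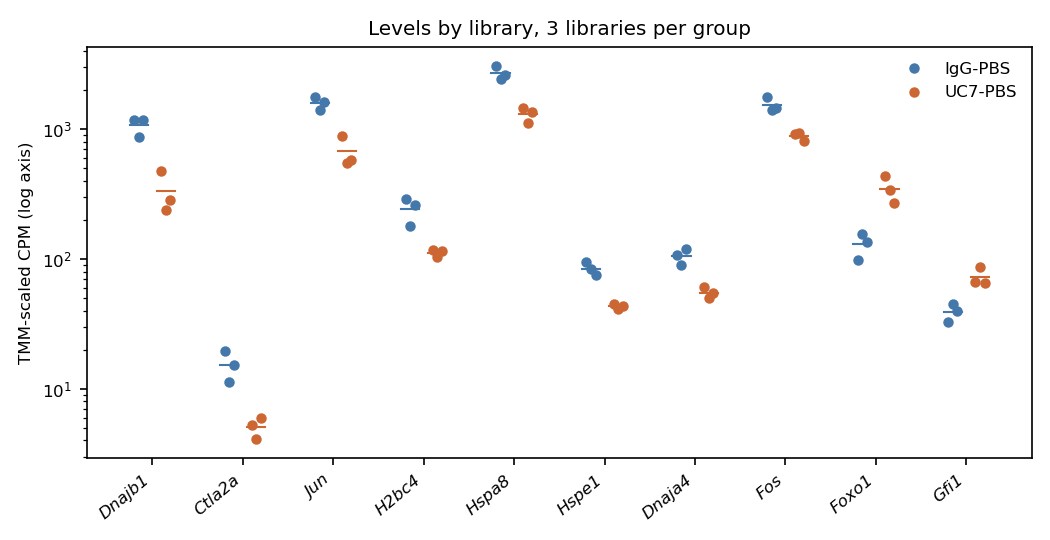
TMM-scaled CPM on a log axis for 10 genes, with a point for each of the 3 libraries per group (IgG-PBS blue, UC7-PBS orange) and a line at the group mean. The first 7 genes fell and Foxo1 rose, while Fos and Gfi1 missed the threshold. No gene shown has overlapping groups, and for all but Fos this was a condition of a rule that named them.

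Foxo1 was the protein-coding gene that rose. It measured 98.4, 156 and 135 CPM with IgG-PBS and 433, 339 and 272 CPM with UC7-PBS. All UC7-PBS libraries were above all IgG-PBS libraries, and the level was 2.68 times as high (log2 difference 1.42, SE 0.20, edgeR adjusted p = 0.0232). The gene lies on chromosome 3 at 52175757 to 52260642. It overlaps the unclassified entry Gm38034, on its own strand, by 2069 bases. In the libraries with IFNa, scaled over all 13, Foxo1 measured 200, 165, 273 and 266 CPM after IgG and 309, 660 and 579 CPM after UC7-13D5. Those after IgG with mostly female transcripts (replicates 1 and 2) were the lower pair, and those with mostly male transcripts (replicates 3 and 4) the higher pair. With the share of male transcripts as a covariate, the UC7-PBS difference of Foxo1 was 0.76 and did not pass, with an edgeR adjusted p of 0.661. It also did not pass without UC7-PBS replicate 2 or without IgG-PBS replicate 3.

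Genes of egress and recirculation include several known FOXO1 targets. Of 15 tested 1 rose (0.0138% over all autosomal genes tested), Foxo1 itself, and the median was 0.16. S1pr1, the receptor that guides T cells out of tissues, measured 2.48, 3.28 and 2.62 CPM with IgG-PBS and 1.59, 1.17 and 1.90 CPM with UC7-PBS (-0.84, SE 0.33, edgeR adjusted p = 0.553). Il7r, the interleukin 7 receptor and a FOXO1 target, measured 37.2, 60.2 and 63.9 CPM against 40.4, 49.3 and 23.1 CPM with overlapping groups (-0.52, SE 0.28). Satb1, a chromatin organiser, measured 7.10, 11.5 and 12.2 CPM against 24.4, 16.1 and 17.6 CPM (0.91, SE 0.24, edgeR adjusted p = 0.251). Gfi1, a transcriptional repressor of lymphocytes, measured 32.9, 45.4 and 40.1 CPM against 66.8, 87.6 and 65.1 CPM. Its groups did not overlap, which was a condition of a rule that named it. The difference of 0.89 (SE 0.16) missed the threshold with an edgeR adjusted p of 0.0745. Of 23 gut retention genes 0 passed. Itgae, the integrin that holds these cells to the epithelium, differed by -0.02 (SE 0.13), and Cd8a by 0.03 (SE 0.14).

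Genes near the threshold on the higher side were mixed in function. Actr5, a chromatin remodelling subunit, measured 12.6, 13.8 and 12.1 CPM against 33.3, 30.7 and 20.6 CPM (1.14, SE 0.20, edgeR adjusted p = 0.0567). Arl8a, a GTPase that moves lysosomes, measured 6.60, 8.82 and 9.48 CPM against 24.3, 29.1 and 14.7 CPM (1.45, SE 0.25, edgeR adjusted p = 0.0567). Grk6, a kinase of chemokine receptors, differed by 0.70 (SE 0.12), and Agfg1 by 0.66 (SE 0.12), both with an edgeR adjusted p of 0.0665. These 4 genes were named by a rule that required groups without overlap, so their lack of overlap is not a separate result. Snx20, a sorting nexin of endosomes, measured 16.7, 38.6 and 17.6 CPM against 121, 110 and 60.2 CPM (2.00, SE 0.40, edgeR adjusted p = 0.221). Rac1, a GTPase of actin motility, measured 48.8, 99.7 and 78.6 CPM against 310, 307 and 140 CPM (1.74, SE 0.37, edgeR adjusted p = 0.233). Of 24 genes of receptor endocytosis and degradation 0 passed, with a median of 0.03. Capg, an actin capping protein, differed by -0.85 (SE 0.19, edgeR adjusted p = 0.174).

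The long noncoding RNA Gm6277 measured 2.78, 3.73 and 2.39 CPM with IgG-PBS and 12.7, 14.4 and 7.51 CPM with UC7-PBS. It rose by 1.96 on the log2 scale (SE 0.29, edgeR adjusted p = 0.0261). Gm6277 overlaps Cables1, which lies on the other strand, by 1650 bases. Cables1 measured 89.1, 167 and 112 CPM against 336, 199 and 223 CPM (1.04, SE 0.26, edgeR adjusted p = 0.251), so reads of the 2 genes may not be separate.

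Among histones and the remaining genes that fell, H2bc4, a clustered histone H2B gene, measured 290, 179 and 261 CPM with IgG-PBS and 117, 103 and 116 CPM with UC7-PBS. The UC7-PBS values were close together and below the others, with a difference of -1.12 (SE 0.17, edgeR adjusted p = 0.0276). Clustered histone genes mostly make messages without a poly(A) tail and are used in DNA replication. Of 18 tested 1 fell (0.0761% over all autosomal genes tested), 9 had lower groups without overlap (6.18% over the same genes), and the median was -0.64. H1f2, a linker histone, measured 362, 231 and 365 CPM against 221, 172 and 213 CPM (-0.66, SE 0.18, edgeR adjusted p = 0.281). Of 33 cell cycle and DNA replication genes 0 passed, and the median was 0.07. The histone sum was 728, 546 and 728 CPM with IgG-PBS and 450.5, 366 and 417 CPM with UC7-PBS. It was lower still, 181 to 299 CPM, in the 6 libraries with IFNa other than UC7-IFNa replicate 2, which held 511 CPM.

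Ctla2a encodes a cysteine protease inhibitor of lymphocytes. It measured 19.7, 11.3 and 15.2 CPM with IgG-PBS and 5.30, 4.09 and 5.92 CPM with UC7-PBS, without overlap. It fell by 1.59 (log2, SE 0.25, edgeR adjusted p = 0.0341). Its neighbour in sequence, Ctla2b, shares 93.4% of bases over 51.5% of a Ctla2a transcript and differed by -0.33 (SE 0.21, edgeR adjusted p = 0.899). Ctla2a also overlaps Gm49391, on its own strand, by 2417 bases. The unclassified transcript Gm43461 measured 3.40, 3.49 and 2.66 CPM against 0.398, 0.418 and 0.464 CPM, a log2 difference of -2.88 (SE 0.37, edgeR adjusted p = 0.0128). It was the entry with the smallest p among the autosomal genes and sits at low counts.

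Effector genes were next. Of 20 cytotoxic granule genes 0 passed, 16 had positive values and the median was 0.16. Gzma, a granule protease and among the most abundant messages of these cells, measured 22902, 28254 and 23089 CPM with IgG-PBS and 30781, 36949 and 30501 CPM with UC7-PBS. The groups did not overlap, and the difference was 0.40 (SE 0.13, edgeR adjusted p = 0.403). Gzmb differed by 0.25 (SE 0.12, edgeR adjusted p = 0.698). Serpinb9, an inhibitor that protects cells from granzyme B, measured 228, 250 and 206 CPM against 309, 385 and 308 CPM (0.55, SE 0.14, edgeR adjusted p = 0.218).

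Cytokines and chemokines had 6 positive and 10 negative values with a median of -0.28, and 0 of 16 passed. Csf2, which encodes GM-CSF, measured 14.2, 4.96 and 13.2 CPM with IgG-PBS and 2.87, 2.21 and 3.44 CPM with UC7-PBS (-1.92, SE 0.37, edgeR adjusted p = 0.0865). Spp1, osteopontin, measured 88.3, 79.1 and 79.4 CPM against 51.9, 40.7 and 53.1 CPM (-0.76, SE 0.14, edgeR adjusted p = 0.0727). Ifng, interferon gamma, measured 86.6, 70.5 and 67.1 CPM against 40.8, 61.6 and 35.5 CPM (-0.70, SE 0.20, edgeR adjusted p = 0.312). Ccl5, a chemokine stored by cytotoxic cells, had a positive difference of 0.77 (SE 0.15, edgeR adjusted p = 0.106). These 4 genes had the smallest p in the list, and none has overlapping groups. Of the 16, 3 were higher without overlap (6.37% over all autosomal genes tested) and 4 lower (6.18%). Among 21 natural killer receptor genes 0 passed, with a median of 0.06. Klrc2, an activating NKG2 receptor, measured 1.95, 1.97 and 1.27 CPM against 4.69, 4.76 and 5.45 CPM (1.52, SE 0.29, edgeR adjusted p = 0.0804). Klrc1, the inhibitory NKG2A, measured 11.8, 15.7 and 21.8 CPM against 69.4, 65.4 and 23.9 CPM (1.69, SE 0.42, edgeR adjusted p = 0.315). Klrb1a, a lectin-like receptor, differed by -0.80 (SE 0.17, edgeR adjusted p = 0.141).

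Of 45 interferon-stimulated genes 0 passed. Of these, 35 had negative values, 9 of them without overlap, and the median was -0.21. Over all autosomal genes tested, 6.18% were lower without overlap. Ifit3, an antiviral gene, measured 3.78, 4.35 and 6.32 CPM with IgG-PBS and 2.83, 2.59 and 1.47 CPM with UC7-PBS (-1.07, SE 0.33, edgeR adjusted p = 0.357). Oas1a differed by -0.39 (SE 0.14, edgeR adjusted p = 0.465). The summed level of the list overlapped between the groups, at 3094 to 3596 CPM with IgG-PBS and 3149 to 3365 CPM with UC7-PBS.

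Secretory epithelium markers had the median farthest from 0 among the 39 lists, without any gene passing. Of 20 secretory epithelium markers 0 passed, 19 had positive values, 13 of them without overlap, and the median was 1.59. The share of all autosomal genes tested that were higher without overlap was 6.37%. Zg16, a goblet cell product, measured 8.35, 15.4 and 24.0 CPM with IgG-PBS and 51.7, 128 and 83.3 CPM with UC7-PBS (2.46, SE 0.48, edgeR adjusted p = 0.231). Tff3, another goblet cell product, differed by 1.98 (SE 0.40, edgeR adjusted p = 0.206), and Chga, a marker of enteroendocrine cells, by 1.93 (SE 0.41, edgeR adjusted p = 0.140). IgG-PBS replicate 1 had the lowest sum and UC7-PBS replicate 1 the highest. Of 26 absorptive enterocyte markers 0 passed, 25 had positive values and the median was 0.63. Reg3g, an antimicrobial lectin of enterocytes, measured 12.2, 25.5 and 12.5 CPM against 53.5, 93.5 and 37.8 CPM (1.88, SE 0.42, edgeR adjusted p = 0.251). Myeloid, B lineage, alpha beta T, innate lymphoid and stromal markers had medians of 0.30, 0.13, 0.12, -0.03 and 0.14, and 0 passed in each of these lists.

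**Figure D4:**
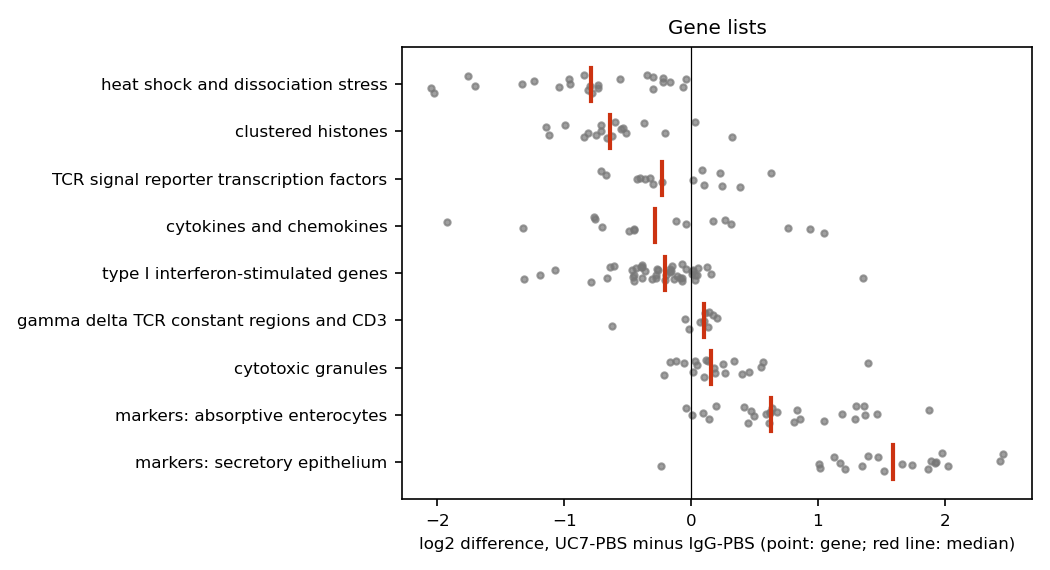
Log2 difference (UC7-PBS minus IgG-PBS, horizontal axis) of each tested gene in 9 lists, with a red line at each list's median. The heat shock and dissociation stress list sits below 0 with a median of -0.79. Secretory epithelium markers, 19 above 0 and 1 below, have a median of 1.59.

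The antibody difference was then read in the libraries with IFNa, which share none with the comparison above. That difference was taken without UC7-IFNa replicate 2, a library that stood apart from the others of its group and had 1.14% of its counts in Rn18s, the highest share of the series. Then all 13 autosomal genes had the same sign with IFNa as with PBS, against 54.3% of the 14456 genes compared. With UC7-IFNa replicate 2 kept, 8 of the 13 did (61.5%), against 58.0% of all genes, so the result rested on that library. With it, Dnajb1 (0.05, SE 0.38), Dnaja4 (0.0036, SE 0.23), Hspe1 (0.15, SE 0.32) and H2bc4 (0.63, SE 0.37) had the opposite sign to their PBS differences, while Foxo1 (1.22, SE 0.26) and Gm6277 (1.43, SE 0.35) kept theirs. Without it, Foxo1 differed by 0.97 (SE 0.27), Gm6277 by 1.20 (SE 0.36), Gm43461 by -1.70 (SE 0.46), Ctla2a by -0.93 (SE 0.46), Dnajb1 by -0.70 (SE 0.37) and Hspe1 by -0.60 (SE 0.20). The others were smaller, with Jun at -0.34 (SE 0.30), Hspa8 at -0.27 (SE 0.21), Dnaja4 at -0.18 (SE 0.25) and H2bc4 at -0.14 (SE 0.33). None of the 13 passed with IFNa after adjustment in either fit (2 of 15697 autosomal genes did, 0.0127%, or 11 with all 13 libraries, 0.0718%), and 5 had an unadjusted p under 0.05 without that library, 2 with it. Gfi1 differed by 1.14 (SE 0.21, edgeR adjusted p = 0.0897) without it and 1.12 (SE 0.20, edgeR adjusted p = 0.0524) with it. IgG-IFNa held 2 libraries with mostly female and 2 with mostly male transcripts, and all 3 UC7-IFNa libraries held male transcripts, so sex was part of this contrast too.

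**Figure D5:**
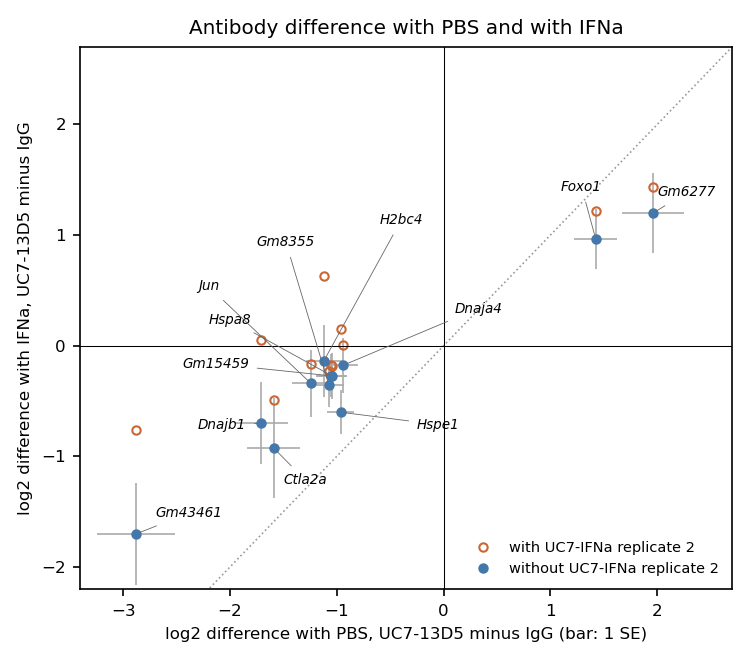
Antibody difference with PBS (horizontal axis, log2) against that with IFNa (vertical axis, log2) for 12 of the 13 autosomal genes that passed with PBS, with bars of 1 SE and a dotted line of equal values. Filled points leave out UC7-IFNa replicate 2 and all 12 have the same sign on both axes; open points keep it, and there Dnajb1, Dnaja4, Hspe1 and H2bc4 lie above 0.

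A test of whether the antibody difference itself changed with IFNa found 0 autosomal genes past the threshold with edgeR, and 698 of 15697 (4.45%) at an unadjusted p under 0.05. With all 13 libraries the counts were 0 and 486 (3.17% of 15318). For Hspa8 the difference with IFNa was 0.77 higher than with PBS (SE 0.28, unadjusted p = 0.0135 by edgeR, adjusted p = 0.952). For Foxo1 it was -0.46 (SE 0.39, adjusted p = 1.00 by edgeR). The heat shock and dissociation list had a median of -0.38 with IFNa, and 22 of its 24 genes were negative, without UC7-IFNa replicate 2. With that library the median was -0.16, and 15 were negative. Secretory and absorptive epithelial markers, higher with PBS, had medians of -0.86 and -0.29 with IFNa without it, and of -0.37 and 0.25 with it. Interferon-stimulated genes had medians of 0.41 and 0.25.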

How the data were processed

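Bulk RNA libraries came from the SMART-Seq HT kit (labels' protocols). Build mm39 and the tools Partek, DESeq2 and STAR 2.7.8a are named in the submitters' processing notes, with no role stated. The deposited table holds estimated counts per gene made by the authors (38.0% of values not whole), rounded here. A second deposited table holds counts the authors scaled between libraries (unit signal), used as an alternative.

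The main test was edgeR 4.0.16 (R 4.3.3) quasi-likelihood with TMM and filterByExpr (minimum count 10) on the 6 libraries, with Benjamini-Hochberg adjustment over all 14945 genes tested and a threshold of 0.05. An SE is the log2 difference over the square root of F. IFNa values came from a fit of 12 libraries. The test was also run on counts simulated from this fit, which held no difference in sex or epithelial RNA between groups. DESeq2 1.42.0 and limma 3.58.1 were alternatives. Named genes were genes that passed, averaged 3 or more in log2 CPM, had groups that do not overlap and bore no model name, up to 12 a direction; where under 6 qualified, the smallest p; up to 4 per list by p; and fixed genes. Others are said to be chosen later. The members, lists and rule were chosen with earlier results of these data known. P-values measure the spread between labelled biological replicates. Copies were matched with blastn to GENCODE M21 transcripts. Results of some items are not reported here.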

Additional observations from a re-analysis of the deposited data

How the results depend on the processing

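The count of 13 autosomal genes was 13 with DESeq2's size factors, 12 with autosomal genes alone in the fit, 12 when adjusted over autosomal genes only, 13 with limma-trend on the deposited normalized counts and 10 with copies merged; the last and the adjustment over autosomal genes were chosen after seeing the data. It was 27 without a count filter and 20 with a minimum count of 50. DESeq2's own test called 172, 123 higher and 49 lower, including all 13. In fits over more libraries it was 0 with all 13 (766 at an unadjusted p under 0.05), 1 with 12 (Gm43461) and 0 with the share of male transcripts as a covariate (1351 unadjusted), all with edgeR. Leaving out 1 library gave 0 to 49. Groups share replicate numbers in the labels. Deviations of same-numbered libraries correlated at -0.24, -0.06 and 0.02, so the numbers were not taken to pair them. No library correlated best with the library of its own number. With the replicate block 20 genes passed, 8 higher and 12 lower, 11 of them among the 13; Foxo1 was not among these, and Zg16, Tff3, Reg3g, Reg3b, Dusp2 and Snx20 passed.

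Each of the 13 genes kept its direction in every setting it was tested in, and none of the 166 genes tried reversed a call. Of the 230 values these 13 genes had under alternatives, 151 passed and 79 did not. Values of other named genes gained the threshold 65 times, 36 of them with DESeq2. With the male share as a covariate the log2 difference of Jun was -0.44 and that of H2bc4 -1.92, and neither passed. The covariate was informed by the IgG-IFNa libraries, which hold both kinds of transcripts, and its own slope passed in 2 of 15697 autosomal genes. Nr4a1, lower with UC7-PBS above, was 1 of these 2. Its log2 slope on the male share was -1.14 (SE 0.16, edgeR adjusted p = 0.00971). With 3 libraries per group, a p that missed the threshold does not show that a gene did not differ.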

Other observations

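In the metabolic and housekeeping lists 0 genes passed the threshold by edgeR. Of 72 cytosolic ribosomal protein genes, 45 had positive values and the median log2 difference was 0.05. Of 42 nuclear oxidative phosphorylation genes the median was -0.02. Of 19 glycolysis genes 16 were negative, and their median of -0.17 lay below the lower quartile of all autosomal genes, -0.16. Pkm, the last kinase of glycolysis, measured 565, 681 and 711 CPM with IgG-PBS and 616, 471 and 545 CPM with UC7-PBS, with overlapping groups. Of 24 cholesterol genes the median was -0.01. Of 18 lipid handling genes it was 0.13. Dgat1, which makes triglycerides, measured 273, 345 and 221 CPM against 363, 371 and 429 CPM (0.47, SE 0.16, edgeR adjusted p = 0.444), without overlap. Of 23 survival and death genes the median was 0.01, and of 20 MHC class I antigen processing genes -0.07.

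Nupr1, a stress-response gene, measured 0.801 to 5.78 CPM with IgG-PBS and 9.06 CPM or more with UC7-PBS (2.00, SE 0.67, edgeR adjusted p = 0.520). IgG-PBS replicate 1 was the lowest and UC7-PBS replicate 1 the highest, the same libraries that had the lowest and highest sums of secretory epithelium markers. The gamma delta variable segment Trgv6 measured 0.877, 0.574 and 5.93 CPM against 0.354, 0.125 and 0.542 CPM, and IgG-PBS replicate 3 was the high library.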
